A study of Rattus norvegicus with 16 samples.

Results

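The comparison described here set 4 arrays of cultured rat pituitary cells exposed to interleukin-6 (IL-6) for 24 h against 4 control arrays of the same kind of culture. These are 8 of the 16 arrays of the series. Its genes are the 14557 that carry a single symbol in the array annotation, each represented by its brightest probe set over the 16 arrays. The series asked how corticotropes, the pituitary cells that make adrenocorticotropic hormone, respond in culture to IL-6, to corticotropin-releasing hormone (CRH) and to extracellular Nampt (eNampt). Each of the 3 ligands and the control has 4 arrays. The cells of all groups came from pituitaries of 21-day-old Wistar rats with no genetic modification named in the labels. They were pulled from a primary culture with antibody-coated beads and grown in DMEM/F12 medium that held FGF at 0.05 µg/l and fetal bovine serum at 10%. The labels' protocols name the antibody as anti-CRHR1, while the design text speaks of anti-CRH. The IL-6 group received IL-6 for 24 h at a dose that the labels do not state. The control titles name neither a vehicle nor a culture time, and no label ties the arrays of a group to separate animals or cultures. P-values therefore speak only of the spread among these samples, and that spread may be technical. RNA was labelled for Affymetrix arrays from 5 ng per sample.

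IL-6 is a cytokine of immune, stromal and endocrine cells, and in the pituitary it is made mainly by folliculostellate cells. It binds the receptor Il6r and the shared signalling chain gp130, on which the kinases Jak1, Jak2 and Tyk2 phosphorylate the transcription factor Stat3. Stat3 enters the nucleus as a dimer, binds short palindromic sites and switches on targets that include inhibitors of the same pathway and, in liver, the acute-phase genes. IL-6 is known to raise Pomc expression and hormone release in corticotropes. The genes of gp130 (Il6st) and of the inhibitor Socs3 were not analysed here.

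The cells were checked against markers of their label. Pomc, the precursor of adrenocorticotropic hormone, had log2 levels of 7.99, 8.19, 8.31 and 8.24 on IL-6 arrays 1 to 4, against 7.89, 7.59, 7.29 and 8.13 on control arrays 1 to 4. The corticotrope transcription factor Tbx19 lay between 1.38 and 2.03 on the IL-6 arrays and between 1.48 and 1.83 on the control arrays. Neurod1, another such factor, lay between 1.30 and 1.58 on the IL-6 arrays and between 1.12 and 1.65 on the control arrays. Pomc was thus bright on every array, while both factors lay near or below 1.95, the median of all values in the deposited table. Some markers of other hormone cells were bright and others were not. The 3 measured thyrotrope markers had a median level of 1.68 on the IL-6 arrays and 1.42 on the control arrays. For the 4 measured gonadotrope markers it was 2.28 and 2.37. Prl, the prolactin of lactotropes, had 10.12, 10.91, 10.72 and 10.80 on the IL-6 arrays, against 10.86, 10.81, 10.52 and 10.93 on the control arrays. Cga, the glycoprotein hormone alpha chain of gonadotropes and thyrotropes, had 8.33, 7.57, 7.91 and 8.11 on the IL-6 arrays, against 7.86, 7.38, 5.53 and 8.07 on the control arrays. Gh1, the growth hormone of somatotropes, had 5.78, 5.19, 5.81 and 5.83 on the IL-6 arrays, against 6.07, 6.05, 2.85 and 5.49 on the control arrays. The preparation therefore held transcripts of several pituitary cell types in both groups, and the levels of these genes overlapped between the groups. In such RNA, fewer cells of a type and less RNA per cell cannot be told apart.

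Control arrays 3 and 4 were unlike the rest. The 90th percentile of their log2 values was 4.58 and 4.43, against 5.37 and 5.51 on control arrays 1 and 2 and between 5.07 and 5.41 on the IL-6 arrays. Array medians differed little and ran from 1.86 to 2.02 on the IL-6 arrays and from 1.92 to 1.99 on the control arrays. The gap therefore concerned bright genes. When the genes were split by mean level into 4 classes of near-equal size, the 3639 genes of the brightest class had median levels of 5.11, 5.19, 5.41 and 5.50 on IL-6 arrays 1 to 4, against 5.34, 5.45, 4.40 and 4.23 on control arrays 1 to 4. Their median difference of IL-6 minus control was 0.42, against -0.06 without control arrays 3 and 4. In the dimmest class both values were 0.01. Of the brightest class 3097 genes were higher after IL-6 than in control, and 1658 were higher when control arrays 3 and 4 were left out. Differences are therefore given with all 4 control arrays and then with arrays 3 and 4 left out.

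**Figure D1:**
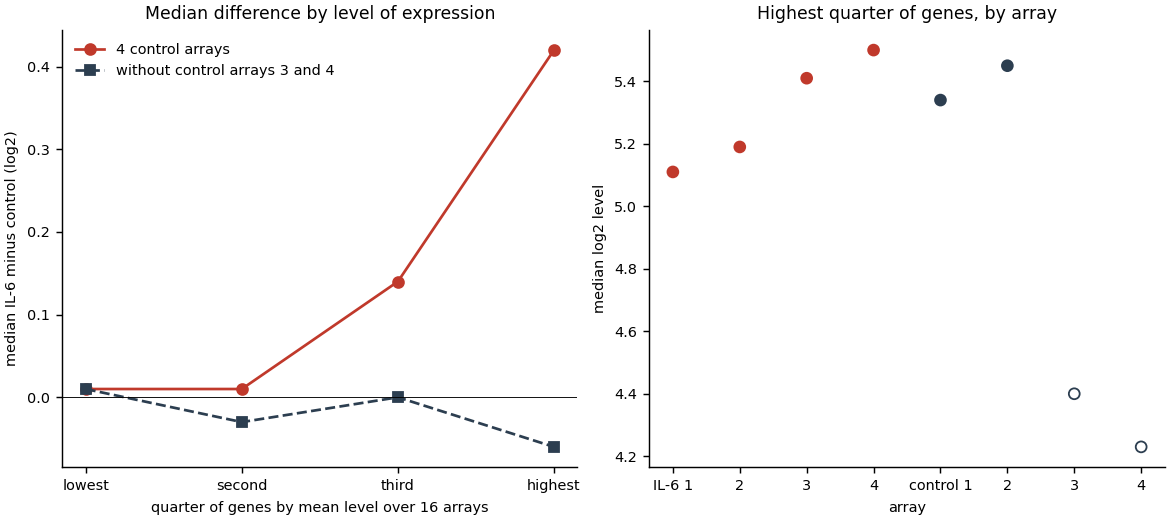
The left panel plots the median log2 difference of IL-6 minus control for 4 classes of genes by mean level, as circles for all 4 control arrays and squares for control arrays 1 and 2. The right panel plots the median log2 level of the brightest class on each array, with IL-6 arrays 1 to 4 in red, control arrays 1 and 2 filled and control arrays 3 and 4 open. The brightest class lies at 0.42 with all control arrays and at -0.06 without arrays 3 and 4, whose points of 4.40 and 4.23 lie below the other 6.

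Across all genes, IL-6 and control differed by an amount the test detected for 1 gene. Limma called 1 of 14557 genes at adjusted p under 0.05 (0.00687% of the genes tested), and 7 when IL-6 array 1 was left out. After IL-6, 644 genes (4.42%) were higher and 162 (1.11%) lower with an unadjusted p under 0.05. Without control arrays 3 and 4, limma again called 1 gene (0.00687%), a different one, and the unadjusted counts turned to 288 higher (1.98%) and 502 lower (3.45%). Which direction prevailed thus depended on those arrays. The share of all genes with any positive difference was 63.2% with the 4 control arrays and 48% without arrays 3 and 4, and the median difference was 0.086 with them and -0.013 without them. At the median residual spread a difference between 2 groups of 4 arrays had a standard error of 0.289. With all 4 control arrays 475 genes had a difference over 1 on the log2 scale and 70 one under -1. Without control arrays 3 and 4 these counts were 385 and 491. As 1 gene was called in each fit, observed differences of this size mostly did not pass the test.

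The called gene was Prxl2a-ps1, which the annotation lists as a pseudogene and whose parent, Prxl2a, encodes a peroxiredoxin-like protein. It had log2 levels of 2.16, 2.33, 1.95 and 2.22 on IL-6 arrays 1 to 4, against 3.42, 3.79, 3.51 and 3.62 on control arrays 1 to 4. All 4 IL-6 arrays lay below all 4 control arrays, and control arrays 3 and 4 lay among the other controls. It fell by 1.42 after IL-6 (SE 0.191, limma adjusted p = 0.0412, n = 4 per group). Without control arrays 3 and 4 its difference was -1.44, with an adjusted p of 0.144. Under 18 alternatives the difference lay between -1.58 and -1.35, and the call was lost under 15 of them. Its differences from the same control arrays were -1.21 after CRH and -1.23 after eNampt, and the IL-6 arrays differed from the mean of those 2 ligands by -0.20. A probe set for a pseudogene may also take up signal of its parent. Prxl2a itself had a difference of 0.16 (SE 0.449, adjusted p = 0.973), against 0.28 without control arrays 3 and 4, and overlapping groups.

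The gene called without control arrays 3 and 4 was Rap2a, a small GTPase of the Ras family. Its log2 levels were 1.87, 1.55, 1.57 and 1.56 on the IL-6 arrays, against 3.81, 3.13, 2.29 and 1.81 on the control arrays. Control array 4 lay within the range of the IL-6 arrays, and the other 3 control arrays lay above it. Rap2a fell by 1.84 after IL-6 relative to control arrays 1 and 2 (SE 0.225, adjusted p = 0.0396). With all 4 control arrays the difference was -1.13 (SE 0.324, adjusted p = 0.728). Relative to those 4 arrays it was -1.02 after CRH and -0.89 after eNampt, and the IL-6 arrays differed from the mean of those 2 ligands by -0.17. All IL-6 values lay below 1.95, the median of all values.

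The IL-6 and control arrays did not overlap for 461 genes (3.17%), of which 351 were higher on every IL-6 array than on every control array (2.41%) and 110 were lower (0.756%). The share without overlap was near this level in dim genes too, at 2.58% in the dimmest class and 2.54% of 1104 olfactory receptor genes, against 3.68% in the brightest class. No test was attached to a lack of overlap, which alone does not mark a gene as changed. Among the 351 the median difference was 0.77, with a range from 0.11 to 2.40, and the median gap between the nearest IL-6 and control arrays was 0.10. The gap passed 0.25 for 82 of them and 0.5 for 30. The 110 lower genes had a median difference of -0.38 and a median gap of 0.05, and the gap passed 0.25 for 6. From the mean of CRH and eNampt, the IL-6 arrays differed by a smaller median, 0.22 in the 351 genes and -0.20 in the 110. Most lower genes were dim, with a mean level under 1.95 for 74 of 110, against 81 of the 351 higher genes. A mean level over 4 was found for 118 of the higher genes and for 1 of the lower ones.

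Leaving out control arrays cannot make separate groups overlap, so the size of each difference was followed instead. Of the 351 higher genes, 290 kept at least 75% of their difference without control arrays 3 and 4, and 55 kept between 50% and 75%. The other 6 kept under 50%, and 154 had a larger difference than with all 4 control arrays. Of the 110 lower genes, 85 kept at least 75%, 14 kept 50% to 75% and 11 kept under 50%. The median share kept was 96.5% for the higher and 97.1% for the lower genes. As these genes were chosen with every control array on the same side of the IL-6 arrays, their direction could not change. Part of the size was kept by that choice as well. A difference over 1 was found for 117 higher genes, 91 of which still passed 1 without arrays 3 and 4, and a difference under -1 for 8 lower genes, 4 of which did. Against control arrays 1 and 2 alone the counts without overlap, out of 14557 genes, were 912 higher and 1101 lower. Against control arrays 3 and 4 alone they were 2919 higher and 545 lower. Groups of fewer arrays lie apart more often in any gene, so the size of these counts cannot be compared with 351 and 110. The pair of control arrays used thus set the balance of directions.

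**Figure D2:**
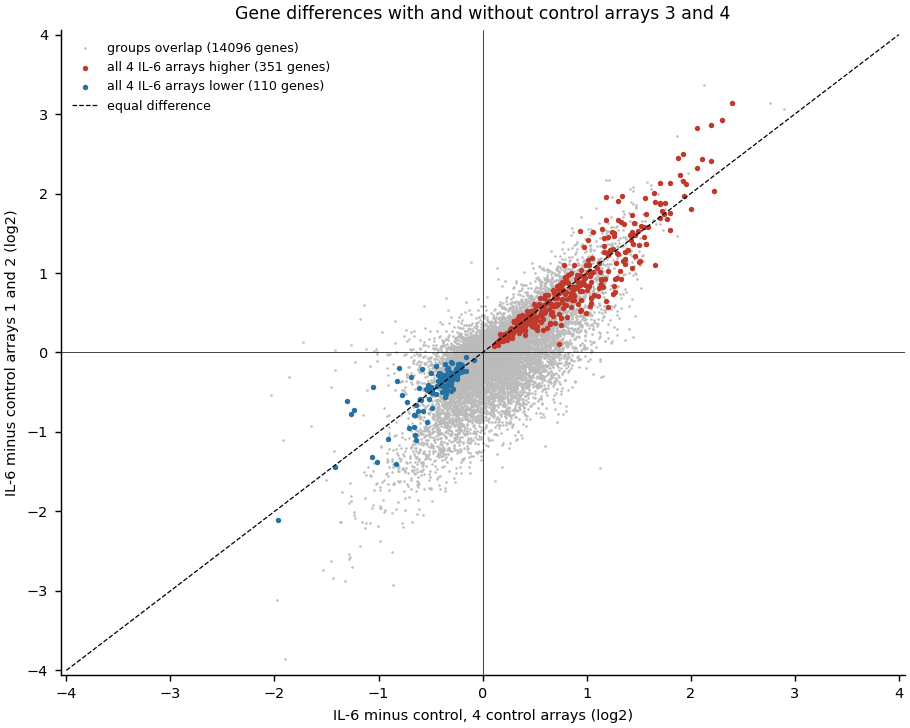
Each point is a gene, placed by its log2 difference of IL-6 minus all 4 control arrays (horizontal axis) and of IL-6 minus control arrays 1 and 2 (vertical axis). Red points are the 351 genes higher and blue points the 110 genes lower on every IL-6 array than on every control array, and the dashed line marks equal differences. The coloured points scatter about the dashed line, while many grey points with overlapping groups are positive on the horizontal axis and negative on the vertical one.

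Among genes without overlap, the 5 nearest to the threshold on the higher side were Clk4, Trim13, Gnat1, Tex261 and Gtf2h3. Clk4, a kinase that phosphorylates splicing factors, had 4.91, 5.59, 5.89 and 5.91 on IL-6 arrays 1 to 4, against 3.70, 3.95, 3.99 and 3.70 on control arrays 1 to 4. Trim13, a ubiquitin ligase of the endoplasmic reticulum membrane, had 3.57, 4.18, 4.58 and 3.02 on the IL-6 arrays, against 1.24, 1.57, 1.96 and 2.16 on the control arrays. Gtf2h3, a subunit of the general transcription factor TFIIH, had 3.14, 4.14, 3.39 and 3.61 on the IL-6 arrays, against 2.27, 2.43, 2.53 and 2.23 on the control arrays. In all 3 genes control arrays 3 and 4 were as high as control arrays 1 and 2 or close to them, so the separation did not rest on that pair. The difference was 1.74 for Clk4 (SE 0.279), 2.11 for Trim13 (SE 0.351) and 1.21 for Gtf2h3 (SE 0.211), and limma gave an adjusted p of 0.118 for each. Without control arrays 3 and 4 the differences were 1.75, 2.43 and 1.22.

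The promoters of these 3 genes and of Zfp933, the gene without overlap that was furthest below control, are shown as examples. Their IL-6 and control arrays lay apart by 0.61 or more with control arrays 3 and 4 in place. Other genes not shown here, such as Adipor2 and Tex261, also lay apart by that much. Each is the 250 bases before the annotated start, 5′ to 3′ on the gene's strand, from RefSeq on build GRCr8. They lie at chr10:36024208-36024457 on the plus strand for Clk4, chr15:39939646-39939895 on the plus strand for Trim13, chr12:37686467-37686716 on the minus strand for Gtf2h3 and chr5:163568167-163568416 on the minus strand for Zfp933. Capitals mark a match to TTCNNNGAA, the core of the site that Stat3 binds, which reads the same on both strands and was searched without any other motif.
Clk4: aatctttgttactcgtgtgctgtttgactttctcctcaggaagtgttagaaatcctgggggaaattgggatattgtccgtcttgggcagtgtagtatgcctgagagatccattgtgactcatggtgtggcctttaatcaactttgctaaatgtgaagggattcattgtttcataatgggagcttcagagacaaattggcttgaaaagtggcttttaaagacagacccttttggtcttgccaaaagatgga
Trim13: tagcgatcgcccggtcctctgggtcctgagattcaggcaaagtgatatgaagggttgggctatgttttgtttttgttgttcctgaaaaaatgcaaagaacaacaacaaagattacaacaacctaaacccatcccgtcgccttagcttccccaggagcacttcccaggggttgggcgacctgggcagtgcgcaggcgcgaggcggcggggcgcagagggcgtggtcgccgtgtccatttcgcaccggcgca
Gtf2h3: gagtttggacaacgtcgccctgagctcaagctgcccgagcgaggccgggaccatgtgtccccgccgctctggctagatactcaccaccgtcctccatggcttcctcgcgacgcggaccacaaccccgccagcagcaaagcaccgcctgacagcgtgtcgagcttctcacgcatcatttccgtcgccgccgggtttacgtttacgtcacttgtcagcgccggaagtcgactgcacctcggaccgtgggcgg
Zfp933: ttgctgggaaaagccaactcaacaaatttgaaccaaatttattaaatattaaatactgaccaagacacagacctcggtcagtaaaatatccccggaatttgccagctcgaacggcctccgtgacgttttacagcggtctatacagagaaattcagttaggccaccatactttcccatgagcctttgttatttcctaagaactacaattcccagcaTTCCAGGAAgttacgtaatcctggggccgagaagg
The match in the Zfp933 promoter begins 35 bases before the start. None of the other 3 windows holds these letters. Of all 11724 gene promoters of this length 6.98% hold the motif, as do 5.56% of 288 promoters of genes without overlap on the higher side and 6.9% of 87 on the lower side. Of the 41 genes of the sequence rule 32 had a promoter in the table, and 1 of these, that of Zfp933, held the motif. The 4 windows shown are therefore not typical of the 32 in this respect.

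Bright genes without overlap included proteins of membranes and organelles. Adipor2, a receptor for adiponectin, had 6.88, 6.77, 7.02 and 7.03 on the IL-6 arrays, against 5.79, 5.33, 5.63 and 5.18 on the control arrays. Tex261, whose yeast counterpart sorts membrane proteins into vesicles that leave the endoplasmic reticulum, had 5.81, 5.92, 6.29 and 5.54 on the IL-6 arrays, against 3.19, 4.29, 3.60 and 4.80 on the control arrays. Lin7c, a scaffold protein of cell junctions and synapses, had 5.65, 7.09, 7.09 and 6.89 on the IL-6 arrays, against 4.39, 4.91, 4.90 and 3.64 on the control arrays. The lowest IL-6 array lay above the highest control array by 0.98 for Adipor2, 0.75 for Tex261 and 0.74 for Lin7c. Their differences were 1.44 (SE 0.273), 1.92 (SE 0.335) and 2.22 (SE 0.412), with limma adjusted p of 0.172, 0.118 and 0.161 in the same order, and without control arrays 3 and 4 they were 1.37, 2.16 and 2.03.

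For some genes control arrays 3 and 4 lay nearer, on average, to the IL-6 arrays than control arrays 1 and 2 did. Pex6, an ATPase that recycles the import receptor of peroxisomes, had 6.48, 6.30, 5.97 and 6.33 on the IL-6 arrays, against 3.48, 3.34, 5.27 and 4.21 on the control arrays. Sap30bp, a nuclear protein that binds a subunit of a histone deacetylase complex, had 4.97, 5.91, 4.98 and 4.92 on the IL-6 arrays, against 2.45, 2.10, 4.17 and 2.86 on the control arrays. Control array 3 was the highest control in both. The difference was 2.19 for Pex6 (SE 0.42, adjusted p = 0.177) and 2.30 for Sap30bp (SE 0.526, adjusted p = 0.449), and without control arrays 3 and 4 it was 2.86 and 2.92. The Pex6 value depends on the probe set, since the mean of its probe sets gave 1.03. Prdm4, a zinc finger regulator of transcription, Fdft1, the squalene synthase of cholesterol synthesis, Samd8, a relative of the sphingomyelin synthases, and Cpne1, a calcium-dependent lipid-binding protein, also had larger differences without control arrays 3 and 4, although of these 4 genes Fdft1 was the one in which each of those arrays lay above both other controls. Their differences were 1.25, 0.97, 1.30 and 1.80 with all control arrays and 1.52, 1.33, 1.66 and 2.13 without arrays 3 and 4.

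The opposite held for other bright genes, Litaf and Mrpl41 among them. Litaf, a protein of late endosome and lysosome membranes, had 7.37, 7.74, 7.19 and 7.13 on the IL-6 arrays, against 6.09, 6.35, 4.94 and 6.05 on the control arrays. Mrpl41, a protein of the large mitochondrial ribosomal subunit, had 7.51, 6.56, 7.20 and 6.75 on the IL-6 arrays, against 5.64, 5.29, 4.90 and 5.00 on the control arrays. Their differences of 1.50 (SE 0.382) and 1.80 (SE 0.452) became 1.14 and 1.54 without control arrays 3 and 4. Secisbp2, which binds the mRNAs of selenoproteins, had a difference of 0.96 (SE 0.176, adjusted p = 0.161), against 0.97 without those arrays.

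A dim gene without overlap was Gnat1, the transducin alpha chain of rod photoreceptors. It had 2.99, 3.73, 2.10 and 2.91 on the IL-6 arrays, against 1.32, 1.38, 1.03 and 1.66 on the control arrays. All control values lay below the median of all values, where the size of a difference is uncertain. The difference was 1.59 (SE 0.268, adjusted p = 0.118), against 1.58 without control arrays 3 and 4.

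**Figure D3:**
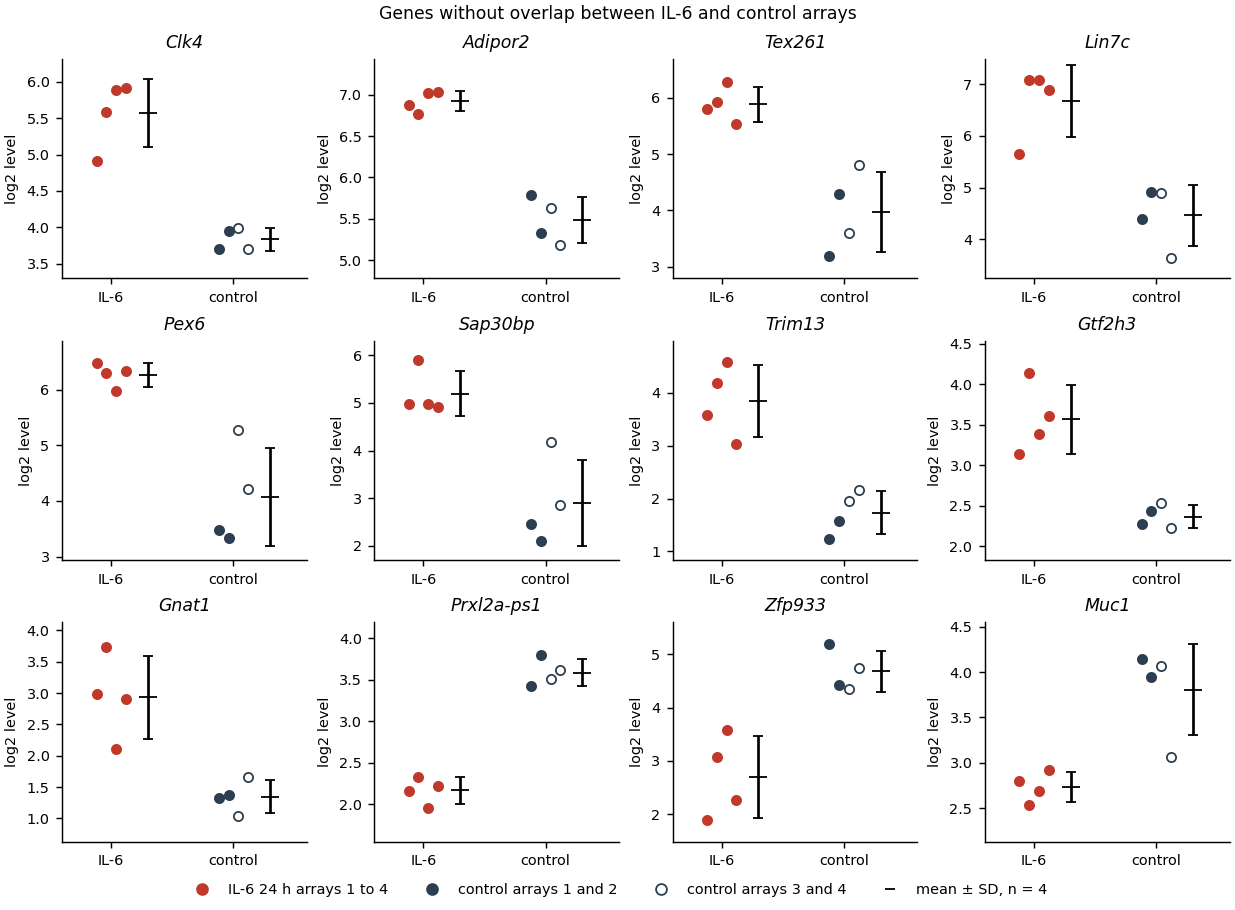
Log2 levels of 12 genes without overlap are plotted by array, with the 4 IL-6 arrays in red on the left and the 4 control arrays on the right, arrays 1 and 2 filled and arrays 3 and 4 open. Bars show mean ± SD (n = 4), and each panel has its own axis. In Clk4 and Gtf2h3 the open points lie among the filled ones, while in Pex6 and Sap30bp the open point of control array 3 is the highest control at 5.27 and 4.17.

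On the lower side, differences were smaller and levels mostly dim. Zfp933, a zinc finger protein, had 1.89, 3.08, 3.59 and 2.27 on IL-6 arrays 1 to 4, against 5.20, 4.43, 4.35 and 4.74 on control arrays 1 to 4. Muc1, a mucin of epithelial cell membranes, had 2.80, 2.53, 2.69 and 2.92 on the IL-6 arrays, against 4.15, 3.95, 4.07 and 3.06 on the control arrays. The nearest arrays of the groups were 0.76 apart for Zfp933 and 0.13 apart for Muc1, where control array 4 was the low control. The difference was -1.97 for Zfp933 (SE 0.462, adjusted p = 0.497) and -1.07 for Muc1 (SE 0.258, adjusted p = 0.601), against -2.11 and -1.31 without control arrays 3 and 4.

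For other lower genes the size rested on control arrays 3 and 4. Taf9, a subunit of the transcription factor TFIID and the lower gene with a mean level over 4, had 3.20, 3.66, 3.07 and 3.41 on the IL-6 arrays, against 3.82, 4.07, 6.37 and 4.29 on the control arrays. Cd300lf, an inhibitory receptor of myeloid cells, had 1.88, 1.54, 1.52 and 1.75 on the IL-6 arrays, against 2.03, 2.03, 3.01 and 2.92 on the control arrays. Their differences were -1.30 and -0.82 with all control arrays, against -0.61 and -0.36 without arrays 3 and 4. The reverse was seen for Gsta4, a glutathione transferase that detoxifies lipid aldehydes, with 2.17, 2.26, 2.08 and 1.69 on the IL-6 arrays, against 3.45, 3.44, 2.27 and 2.39 on the control arrays. Its difference was -0.84, against -1.40 without arrays 3 and 4. Smaller differences without overlap were those of the fructose transporter Slc2a5 (-0.54), the disulfide isomerase Pdia2 (-0.51), Cd209fl1 (-0.57) and the augmin subunit Haus5 (-0.36), which were -0.46, -0.59, -0.73 and -0.56 without control arrays 3 and 4.

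The IL-6 pathway itself was followed by role, with 0 genes called in each list. Il6, the ligand, had 4.75, 4.75, 4.87 and 3.74 on the IL-6 arrays, against 5.95, 4.96, 2.00 and 3.52 on the control arrays. The groups overlapped, and control arrays 3 and 4 were the lower controls, so the difference of 0.42 (SE 0.812, adjusted p = 0.955) was -0.93 without them. Il11, a relative that uses the same signalling chain, had a difference of -0.91 (SE 0.403, adjusted p = 0.86), against -1.36 without control arrays 3 and 4. Its highest value, 4.32, was on control array 2, and without that array the difference was -0.38. Of 8 measured ligands of the IL-6 family 4 were higher after IL-6, and without control arrays 3 and 4 it was 1 of 8.

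Among receptors, Il6r had 3.16, 2.50, 2.17 and 3.62 on the IL-6 arrays, against 2.49, 2.72, 2.96 and 2.97 on the control arrays. The IL-6 arrays lay on both sides of the controls, and the difference was 0.08 (SE 0.326, adjusted p = 0.986), against 0.26 without control arrays 3 and 4. The IL-11 receptor Il11ra1 had a difference of 0.31 (SE 0.305, adjusted p = 0.91), against 0.36 without control arrays 3 and 4. The 7 measured receptors had a median difference of 0.08, against 0.086 over all genes.

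Among signal transducers, Jak1, the main kinase of the gp130 receptors, had 6.37, 6.68, 6.57 and 6.36 on the IL-6 arrays, against 6.12, 6.36, 5.02 and 3.68 on the control arrays. Stat3 had 6.04, 6.31, 6.0 and 6.91 on the IL-6 arrays, against 6.68, 7.40, 5.74 and 4.17 on the control arrays. In both genes control arrays 3 and 4 were the lowest of the 8 arrays. The Jak1 difference was 1.20 (SE 0.541, adjusted p = 0.86) with all control arrays and 0.25 without arrays 3 and 4, and the Stat3 difference was 0.32 (SE 0.529, adjusted p = 0.945) with them and -0.72 without them. Jak2 had a difference of 0.25 (SE 0.235, adjusted p = 0.909), against 0.27 without arrays 3 and 4 and 0.11 without IL-6 array 4.

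Other transducers had differences that did not rest on that pair. Gab1, a docking protein that links gp130 to the kinases ERK and PI3K, had 4.68, 5.06, 5.68 and 5.62 on the IL-6 arrays, against 4.31, 4.50, 4.64 and 3.86 on the control arrays. Its groups did not overlap, by 0.03, and its difference was 0.93 (SE 0.318, adjusted p = 0.842), against 0.85 without control arrays 3 and 4. Stat6, which transmits interleukin-4 signals, had 3.93, 5.13, 5.95 and 5.26 on the IL-6 arrays, against 2.70, 4.35, 4.07 and 3.78 on the control arrays. It overlapped at 1 IL-6 array, with a difference of 1.35 (SE 0.452, adjusted p = 0.83), against 1.55 without arrays 3 and 4. Of the 15 measured transducers 13 were higher after IL-6 (63.2% of all genes were), and their median difference of 0.37 was 0.11 without control arrays 3 and 4. The groups did not overlap for 1 of the 15 (6.67%, against 3.17% of all genes).

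The inhibitors of the pathway were the pathway list whose median moved least between the fits with and without control arrays 3 and 4. Of 12 measured inhibitors 10 were higher after IL-6, also without control arrays 3 and 4, where 48% of all genes were, and the median difference was 0.44 with and 0.43 without those arrays. Pias3, which blocks DNA binding by Stat3, had 3.58, 3.72, 3.03 and 3.26 on the IL-6 arrays, against 2.52, 2.88, 2.36 and 2.45 on the control arrays, with no overlap. Its difference was 0.84 (SE 0.289, adjusted p = 0.842), against 0.69 without arrays 3 and 4. Socs6 and Socs7, of the family of suppressors of cytokine signalling, had differences of 1.07 (SE 0.414) and 1.16 (SE 0.489), an adjusted p of 0.86 each and overlapping groups, and 1.19 and 1.02 without arrays 3 and 4. None of the 12 passed the test, and 1 of the 12 did not overlap (8.33%, against 3.17% of all genes). Their median difference from the mean of CRH and eNampt was -0.01, and repeated quantile normalization gave a median of 0.29 against control.

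No target gene of Stat3 passed the test. At an unadjusted p under 0.05, 5 of 26 were higher and 0 lower (4.42% and 1.11% of all genes), and 2 of 26 (7.69%, against 3.17% of all genes) did not overlap. Of these measured targets 20 were higher after IL-6, with a median difference of 0.27, and without control arrays 3 and 4 it was 11 of 26, with a median of -0.03. Egr1, an immediate early transcription factor, had 7.39, 7.92, 7.60 and 7.85 on the IL-6 arrays, against 7.35, 6.94, 7.26 and 6.66 on the control arrays. The groups were 0.04 apart, and the difference was 0.64 (SE 0.177, adjusted p = 0.714), against 0.55 without those arrays. Pim2, a survival kinase named here after its values were seen because it was the other target without overlap, had a difference of 0.68 (SE 0.387, adjusted p = 0.86), against 0.78 without those arrays and 0.44 without IL-6 array 2. Fos, an immediate early transcription factor, and Irf9, a factor of the interferon response, had differences of 0.62 (SE 0.218, adjusted p = 0.846) and 1.15 (SE 0.486, adjusted p = 0.86), against 0.67 and 1.53 without arrays 3 and 4, with overlapping groups. Classic targets were near 0 or turned sign, with differences of 0.31 for Junb, 0.11 for Cebpb and 0.11 for Timp1, against -0.23, -0.04 and -0.09 without arrays 3 and 4, and Bcl3 had 0.35 (SE 0.45, adjusted p = 0.931), against 0.57 without arrays 3 and 4 and 0.14 without IL-6 array 4.

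Of 25 measured acute-phase genes 15 were higher after IL-6, with a median difference of 0.09, the same as over all genes to 2 decimals, and 0.02 without control arrays 3 and 4. A2m, the protease inhibitor that is the main acute-phase protein of the rat, had 6.51, 7.15, 6.49 and 7.07 on the IL-6 arrays, against 5.70, 5.70, 6.08 and 6.22 on the control arrays. All IL-6 arrays lay above all control arrays, and control arrays 3 and 4 were the higher controls. The difference was 0.88 (SE 0.387, adjusted p = 0.86), against 1.10 without those arrays, and it was 0.48 after CRH and 0.89 after eNampt relative to the same control arrays. Lcn2, an iron-binding acute-phase protein, had 6.07, 6.08, 7.08 and 6.87 on the IL-6 arrays, against 6.68, 6.28, 3.97 and 5.24 on the control arrays. Its difference of 0.98 (SE 0.487, adjusted p = 0.86) was 0.04 without control arrays 3 and 4. Serpina1, the antitrypsin gene and the other acute-phase gene without overlap, named after its values were seen, had a difference of 0.22 at levels under 1.95, against 0.18 without arrays 3 and 4. Thus 2 of the 25 acute-phase genes did not overlap (8.0%, against 3.17% of all genes). Cd14, a co-receptor for bacterial lipopolysaccharide, had 3.52, 3.11, 3.60 and 3.42 on the IL-6 arrays, against 6.23, 4.51, 3.60 and 3.56 on the control arrays, with a difference of -1.06 (SE 0.516, adjusted p = 0.86), against -1.96 without arrays 3 and 4. Control array 1 was the high control, and without it the difference was -0.48.

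**Figure D4:**
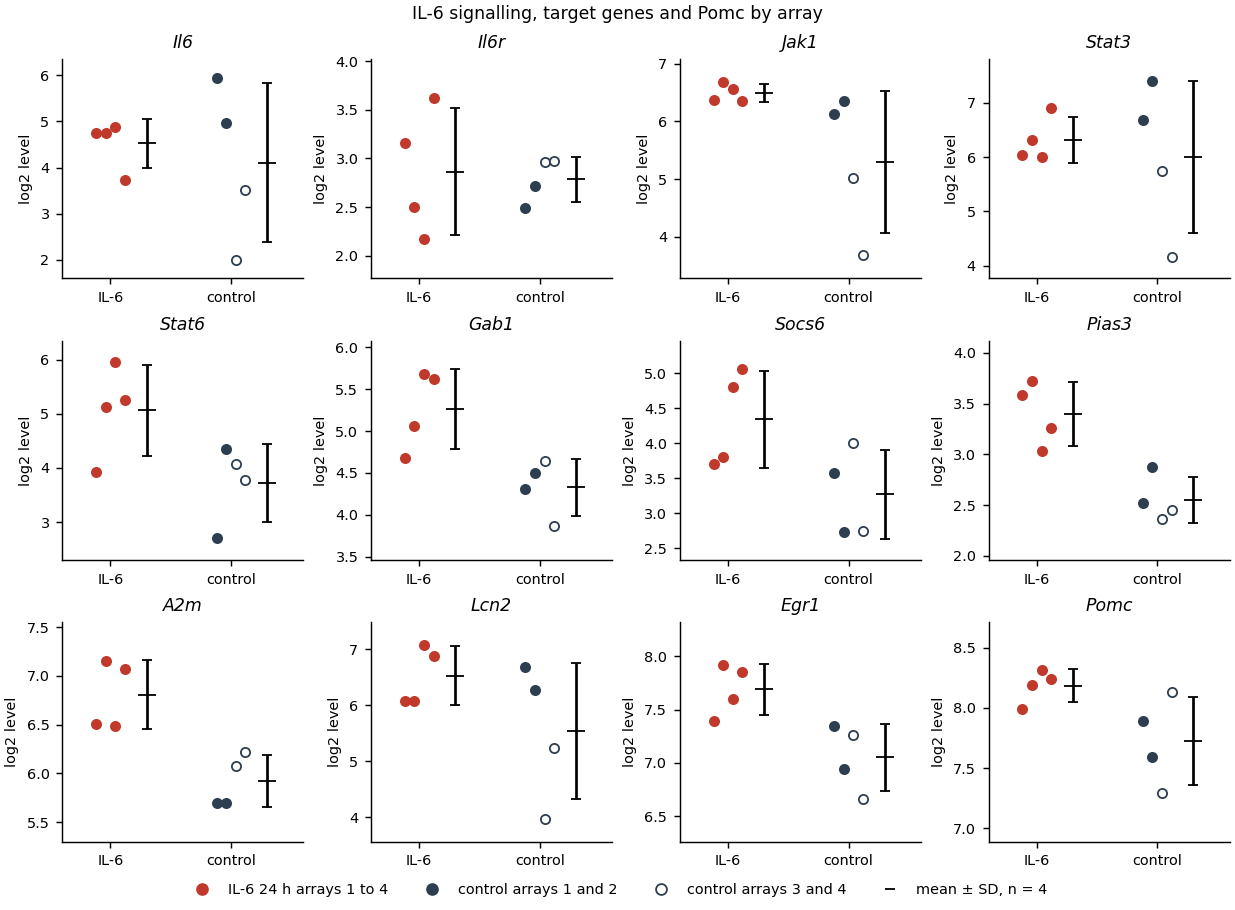
Log2 levels of Il6, its receptor, transducers, inhibitors, target genes and Pomc are plotted by array, with the 4 IL-6 arrays in red on the left and the control arrays on the right, arrays 1 and 2 filled and arrays 3 and 4 open. Bars show mean ± SD (n = 4), and each panel has its own axis. In Jak1 and Stat3 the open points lie lowest, while Gab1, Pias3, A2m and Egr1 show no overlap of the groups.

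Corticotrope genes showed small differences. Pomc, whose values are given above, had a difference of 0.45 (SE 0.193, adjusted p = 0.86), and 0.44 without control arrays 3 and 4. It was higher on 3 of the 4 IL-6 arrays than on every control array, and the exception was IL-6 array 1, which lay below control array 4. The differences of the other ligands from the same control arrays were 0.72 after CRH and 0.53 after eNampt. Of 11 measured corticotrope genes 9 were higher after IL-6, with a median difference of 0.16 and 0.10 without arrays 3 and 4. Hes6, a transcriptional cofactor, had a difference of 0.43 (SE 0.247, adjusted p = 0.86), which was 0.67 without IL-6 array 2. Nr4a1, a nuclear receptor that activates Pomc, had one of 0.83 (SE 0.681, adjusted p = 0.889), against 1.16 without control arrays 3 and 4 and 1.32 without IL-6 array 1. On IL-6 array 1 Nr4a1 was lower than on any control array, at 3.39, against 3.46 to 4.84 on the control arrays.

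Immediate early and inflammatory genes were mixed. Dusp5, a phosphatase of ERK kinases, had 3.11, 3.67, 3.49 and 4.26 on the IL-6 arrays, against 2.90, 2.43, 2.40 and 2.69 on the control arrays. Ccl5, a chemokine that attracts T cells and monocytes, had 3.62, 3.34, 2.94 and 3.77 on the IL-6 arrays, against 2.52, 2.68, 2.46 and 2.57 on the control arrays. Neither gene overlapped, and their differences of 1.03 (SE 0.254, adjusted p = 0.601) and 0.86 (SE 0.241, adjusted p = 0.714) were 0.97 and 0.82 without control arrays 3 and 4. The NF-kB list was the only list of more than 1 measured gene with a median below 0 with all control arrays, -0.06, against -0.24 without arrays 3 and 4, with 15 of 35 genes higher. Besides Ccl5, Bcl2a1, an inhibitor of apoptosis named after its values were seen, did not overlap, with a difference of 0.49 (SE 0.44, adjusted p = 0.902), against 0.36. Genes without overlap were 2 of 35 in the NF-kB list (5.71%) and 2 of 26 in the immediate early list (7.69%), against 3.17% of all genes. Csf2, a growth factor of granulocytes and macrophages, had 1.57, 2.11, 1.67 and 1.79 on the IL-6 arrays, against 3.27, 2.81, 1.29 and 2.21 on the control arrays. Its difference was -0.61 (SE 0.31, adjusted p = 0.86), against -1.26 without arrays 3 and 4 (adjusted p = 0.0855), -0.32 without control array 1 and -0.98 without control array 3.

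Genes of the secretory pathway held the largest shares of genes without overlap among lists of more than 10 genes, although the medians of both lists rested on control arrays 3 and 4. In the list of vesicle traffic between endoplasmic reticulum and Golgi 4 of 38 genes did not overlap (10.5%, against 3.17% of all genes), and in the list of endoplasmic reticulum stress 4 of 22 did not (18.2%). All 8 were higher after IL-6. Sec22b, a membrane fusion protein of these vesicles, had 5.17, 5.73, 5.98 and 5.87 on the IL-6 arrays, against 2.96, 4.62, 3.90 and 4.64 on the control arrays. Txndc12, a thioredoxin-like protein of the endoplasmic reticulum, had 6.67, 6.77, 7.04 and 6.77 on the IL-6 arrays, against 4.57, 6.48, 5.05 and 5.55 on the control arrays. Hyou1, a chaperone of the endoplasmic reticulum, had 2.50, 3.42, 3.49 and 4.40 on the IL-6 arrays, against 2.11, 2.44, 2.17 and 1.61 on the control arrays. The nearest arrays lay 0.53 apart for Sec22b, 0.19 for Txndc12 and 0.05 for Hyou1. Their differences were 1.66 (SE 0.41, adjusted p = 0.601), 1.40 (SE 0.313, adjusted p = 0.449) and 1.37 (SE 0.309, adjusted p = 0.449), and 1.90, 1.29 and 1.18 without control arrays 3 and 4. After CRH and eNampt, the differences from the same 4 control arrays were 1.60 and 1.71 for Sec22b and 1.44 and 1.56 for Txndc12. For Hyou1 they were 0.17 and 0.52.

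Tex261, described above, was another traffic gene without overlap, and 4 more genes of the 2 lists were named after their values were seen. Ykt6, a fusion protein, had a difference of 2.00 (SE 0.79) and the coat protein Copb1 one of 1.07 (SE 0.697). Creld2, a stress-induced chaperone, had 0.86 (SE 0.31), and Sel1l, a partner in the degradation of misfolded proteins, had 0.55 (SE 0.405). Their adjusted p lay between 0.86 and 0.871, and without arrays 3 and 4 the differences were 1.80, 0.72, 0.66 and 0.61. Without control array 4 alone Copb1 had 0.68. From the mean of CRH and eNampt, the IL-6 arrays differed by 0.50 for Ykt6, 0.02 for Copb1, -0.40 for Creld2 and 0.06 for Sel1l. As whole lists, 35 of 38 traffic genes and 18 of 22 stress genes were higher after IL-6, against 21 of 38 and 8 of 22 without control arrays 3 and 4. The medians were 0.46 and 0.30 with all control arrays and 0.03 and -0.24 without those 2 arrays. Against the mean of CRH and eNampt the list medians were 0.04 and -0.01. In the list of secretory granules 14 of 18 genes were higher, with a median of 0.27, against 0.34 without those arrays, and 1 of 18 did not overlap (5.56%). Scg2, a granin of hormone granules, had 8.04, 8.01, 8.05 and 8.11 on the IL-6 arrays, against 7.96, 7.44, 6.88 and 6.90 on the control arrays, without overlap, and its difference of 0.76 (SE 0.234, adjusted p = 0.798) was 0.35 without arrays 3 and 4.

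Lists of bright housekeeping genes had positive medians with all control arrays and negative ones without control arrays 3 and 4. Of 28 measured genes of respiratory complex I 27 were higher, with a median difference of 0.59, and of 31 genes of complexes II to V 30 were higher, with a median of 0.50. Without control arrays 3 and 4 it was 13 of 28 with a median of -0.05, and 11 of 31 with a median of -0.16. Ndufs8, a complex I subunit, had 6.27, 5.56, 6.23 and 6.86 on the IL-6 arrays, against 5.39, 5.93, 3.71 and 5.51 on the control arrays. The groups overlapped, control array 3 was the lowest, and 0 genes of either list were without overlap. The same turn was seen in translation factors (0.29 with all control arrays, -0.25 without arrays 3 and 4), proteasome subunits (0.40 and -0.13), splicing factors (0.34 and -0.23) and cytosolic ribosomal proteins (0.15 and -0.18). Rpl6, a ribosomal protein, had a difference of 0.75 (SE 0.338, adjusted p = 0.86), against 0.24, and the initiation factor Eif3h had 0.77 (SE 0.259, adjusted p = 0.83), against 0.34.

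In 3 of these housekeeping lists 1 gene each did not overlap, namely Clk4 among 40 splicing factors and kinases (2.5%), Eif4h among 24 translation factors (4.17%) and Psmd12 among 30 proteasome subunits (3.33%), against 3.17% of all genes. Eif4h, which aids the helicase of translation initiation, had 7.46, 7.44, 7.66 and 7.64 on the IL-6 arrays, against 6.51, 6.87, 7.01 and 6.75 on the control arrays. Its difference was 0.77 (SE 0.262, adjusted p = 0.842), and 0.86 without control arrays 3 and 4. The proteasome subunit Psmd12 had a difference of 1.04 (SE 0.442, adjusted p = 0.86), against 0.68. Kif20a, a mitotic kinesin, was the gene without overlap among 27 cell cycle genes (3.7%). It had 4.84, 5.72, 4.77 and 4.87 on the IL-6 arrays, against 4.45, 3.15, 4.59 and 3.25 on the control arrays. Its difference was 1.19 (SE 0.471, adjusted p = 0.86), against 1.25. In the clock list 1 of 11 genes did not overlap (9.09%) and in the matrix list 1 of 28 (3.57%), against 3.17% of all genes. The clock output gene Dbp had a difference of 0.78 (SE 0.319), against 1.10, and Col4a1, a basement membrane collagen, had 0.52 (SE 0.19), against 0.44, both with an adjusted p of 0.86. Sc5d, of cholesterol synthesis, and the splicing factor Srsf2 had differences of 1.47 (SE 0.65) and 1.00 (SE 0.368), each with an adjusted p of 0.86 and overlapping groups, against 0.99 and 1.28.

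**Figure D5:**
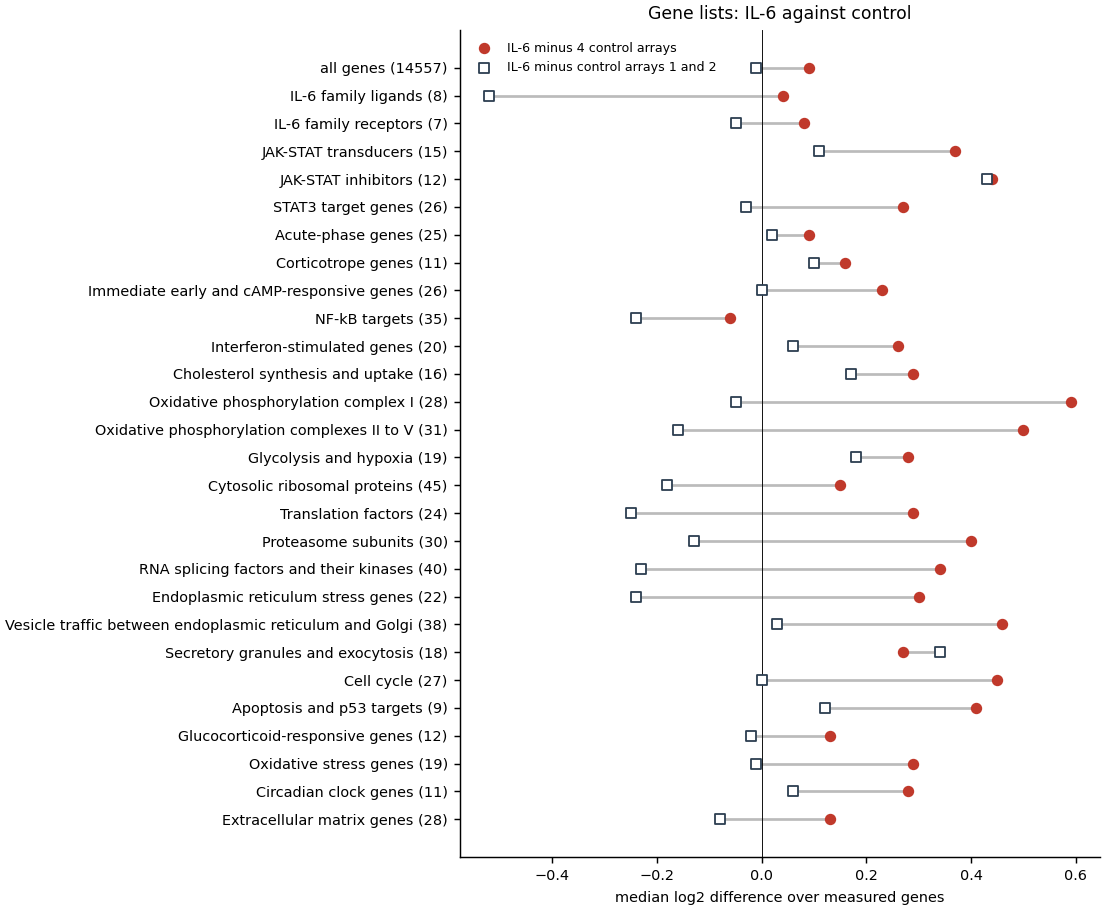
Median log2 differences of IL-6 minus control are plotted for 27 gene lists and for all genes, with the number of measured genes in brackets. Red circles use all 4 control arrays and open squares use control arrays 1 and 2. The circles of complex I and complexes II to V lie at 0.59 and 0.50 and their squares at -0.05 and -0.16, while the inhibitors of the pathway lie at 0.44 and 0.43.

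Markers of other cells were followed beside these lists. Drd2, the dopamine receptor of lactotropes and melanotropes, had 6.37, 6.55, 6.91 and 7.30 on the IL-6 arrays, against 6.30, 3.33, 6.12 and 6.02 on the control arrays. The groups were 0.08 apart, control array 2 was far below the rest, and the difference of 1.34 (SE 0.583, adjusted p = 0.86) was 1.97 without control arrays 3 and 4 and 0.64 without control array 2. Prl had a difference of -0.14 (SE 0.181, adjusted p = 0.93), Gh1 one of 0.53 (SE 0.601, adjusted p = 0.923) and Cga one of 0.77 (SE 0.519, adjusted p = 0.865). Without control arrays 3 and 4 they were -0.20, -0.41 and 0.36, and without control array 3 alone the Cga difference was 0.21. Fxyd1, a regulator of the sodium pump used here as a marker of folliculostellate and stem cells, had 5.85, 1.83, 5.97 and 5.64 on the IL-6 arrays, against 2.07, 1.29, 2.10 and 2.79 on the control arrays. It was high on 3 IL-6 arrays and within the control range on IL-6 array 2, with a difference of 2.76 (SE 1.14, adjusted p = 0.86), against 3.14. Cdh26, a cadherin of the same list, had 3.29, 3.35, 3.00 and 3.98 on the IL-6 arrays, against 2.66, 2.67, 2.71 and 2.76 on the control arrays, without overlap. Of the 6 measured markers of these cells 5 were higher after IL-6, the list's median level ran from 2.36 to 3.54 over the IL-6 arrays and from 2.37 to 2.78 over the control arrays, and their part in the other results was not tested. Leukocyte and endothelial markers had median differences of 0.05 and 0.06, at median levels of 1.88 and 1.68 on the IL-6 arrays and 1.75 and 1.60 on the control arrays.

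The other ligands gave a comparison whose differences use no control array, although its test rests on the spread within all 16 arrays, controls included. Limma called 0 genes between IL-6 and the mean of CRH and eNampt (0%), the smallest adjusted p being 0.129, and with an unadjusted p under 0.05, 245 genes (1.68%) were higher and 207 (1.42%) lower after IL-6. No difference was therefore shown to be particular to IL-6. The 3 genes nearest to the threshold were also among those without overlap from control. Trim13 was 1.88 above the other ligands (SE 0.304), Gnat1 1.41 (SE 0.232) and Gtf2h3 1.19 (SE 0.182), each with an adjusted p of 0.129. Relative to the control arrays that all 3 comparisons share, Trim13 had differences of 2.11 after IL-6, 0.38 after CRH and 0.07 after eNampt. Gnat1 had 1.59, 0.12 and 0.23 and Gtf2h3 had 1.21, -0.26 and 0.30 in the same order. For other genes the 3 ligands had like values against those controls, with 2.22, 2.33 and 2.44 for Lin7c and 1.92, 1.85 and 1.93 for Tex261. Clk4 lay between, with 1.74 after IL-6, 0.88 after CRH and 0.96 after eNampt.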

How the data were processed

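RNA of 16 samples was measured on Affymetrix arrays, 4 per group, and groups were taken from the sample titles. The authors deposited log2 expression values per probe set, for which the submitters' processing notes name RMA. RMA as generally used subtracts background, gives all arrays the same distribution of probe intensities and summarises probes, so values near background are compressed. Not given in the sources used here are RMA's version, whether probe sets stand for exons or whole transcripts, and the genome build. Signal at low levels and the number of arrays limit the precision.

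Symbols came from the array annotation, updated through Entrez identifiers to RefSeq (GRCr8), and 21032 probe sets with no symbol in the annotation used here were left out. Limma 3.58.1 in R 4.3.3 fitted 1 mean per group to all 16 arrays (12 residual and 2.28 prior degrees of freedom), with two-sided moderated tests and Benjamini-Hochberg adjustment over all 14557 genes, and 0.05 as threshold. No filter on dim genes was applied. The fit was tested on simulated data.

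Genes were named by rule: those called, those without overlap with the largest moderated statistic in either fit (10 and 8 each way) or, at a mean level over 4, the widest gap (8 each way), up to 3 or 2 members of each list, and fixed pathway genes. The 38 lists held 879 genes, 619 of them measured. Members, lists and tests were chosen with earlier results of these data known. Alternatives were single arrays left out, arrays 3 and 4 left out, a replicate block, another normalization, variance settings, a level filter and all probe sets.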

Additional observations from a re-analysis of the deposited data

Results flagged for a closer look

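In 14 of 170 groups of 4 arrays examined, for 85 genes in IL-6 and control, 1 array lay so far from the other 3 that its gap over the group's range passed Dixon's critical value. Chance gives about 1 in 20 such groups. On IL-6 array 1, Rap2a was high at 1.87, Lin7c low at 5.65 and Nr4a1 low at 3.39. On IL-6 array 2, Sap30bp was high at 5.91 and Kif20a high at 5.72, while Hes6 was low at 2.55, Gh1 low at 5.19 and Fxyd1 low at 1.83. On IL-6 array 4, Il6 was low at 3.74 and Bcl3 high at 2.83. On control array 2, Il11 was high at 4.32 and Drd2 low at 3.33. On control array 4, Timp1 was low at 6.23 and Copb1 low at 4.00. All values are log2 levels.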

How the results depend on the processing

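The count of 1 gene called between IL-6 and control was 0 with a replicate block (with which 768 genes were higher and 156 lower at an unadjusted p under 0.05), with a term for arrays 1 and 2 against 3 and 4, without control and IL-6 arrays 3 and 4, with only the 8 arrays, with weights for array quality, with robust variances and an intensity trend, above the median of all values and over all probe sets. Same-numbered IL-6 and control arrays did not deviate together, with correlations of their deviations of 0.01, -0.06, -0.02 and -0.18, and differently numbered ones reached 0.28, so the numbers were not taken as a pairing. With 1 array left out it was 0 to 7, the 7 (Clk4, Gtf2h3, Hyou1, Lin7c, Prxl2a-ps1, Shc3 and Vash1, the last 2 named after their values were seen) without IL-6 array 1. Without IL-6 array 3 the gene called was Gnat1. Between IL-6 and the other ligands the count of 0 was 0 to 3 with 1 array left out (3 without IL-6 array 1, 1 without IL-6 array 3 and 1 without eNampt array 3). Leaving out CRH or eNampt arrays was chosen after seeing the data. That count was 1 (Csf2) without control arrays 3 and 4, 2 (Gnat1 and Trim13) with trend and robust variances and 2 over all probe sets.

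Higher genes at an unadjusted p under 0.05 ranged from 405 (without control array 4) to 902 with 1 array left out, and were 288 without control arrays 3 and 4, 307 without control and IL-6 arrays 3 and 4 and 1352 over all probe sets. Lower genes ranged from 96 (without IL-6 array 4) to 262 (without control array 3) and, under the same 3 settings, were 502, 401 and 787, with 98 from only the 8 arrays and 42 above the median level. Against the other ligands, higher genes were 445 without control and IL-6 arrays 3 and 4, 117 above the median level and 794 over all probe sets, and lower genes were 135 and 430 under the last 2. Genes without overlap rise in number whenever an array is left out, with 523 to 893 higher and 193 to 304 lower. They were 912 and 1101 without control arrays 3 and 4, 2310 and 2507 without control and IL-6 arrays 3 and 4, and 829 and 380 over all probe sets, with 36 lower above the median level.

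Of 85 named genes 74 kept their direction under all alternatives run, up to 18 each. Many of the 85 were named because their groups did not overlap, and leaving out arrays could not turn the direction of such genes. The replicate terms and the trend and robust variances leave the size of a difference unchanged. The count of 74 is therefore in part fixed by how the genes were chosen. The other 11 turned. Without control arrays 3 and 4 the values were -0.93 for Il6, -0.72 for Stat3, -0.23 for Junb, -0.04 for Cebpb, -0.09 for Timp1 and -0.41 for Gh1. Without control and IL-6 arrays 3 and 4 they were -0.70 for Il6, -0.86 for Stat3, -0.36 for Junb, -0.41 for Lcn2 and -0.58 for Gh1. Repeated quantile normalization gave -0.02 for Il6r, -0.01 for Stat3 and -0.23 for Timp1, and array quality weights gave -0.01 for Il6r and -0.0021 for Timp1. With 1 array left out the lowest and highest values were -0.28 and 1.04 for Il6, -0.17 and 0.31 for Il6r, -0.29 and 0.79 for Stat3, -0.02 and 0.20 for Cebpb, -0.07 and 0.30 for Timp1, -0.11 and 0.11 for Tbx19, -0.23 and 0.03 for Prl, -0.22 and 0.85 for Gh1, and -0.13 (without IL-6 array 1) and 0.38 for Prxl2a. The cause was not tested. Of 683 list medians under alternatives, 19 in 14 lists moved by more than the spread between arrays. Dim genes near the array median have uncertain sizes, and 4 arrays a group limit what could be detected.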
